A study of Mus musculus with 2 samples.

Results

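Neurons that carried transcripts of Dmrt3 were examined in a day 9 differentiation of mouse embryonic stem cells. A cell was counted as a Dmrt3 neuron when it held at least 1 unique molecular identifier (UMI, the tag that marks 1 captured transcript) of Dmrt3 and at least 5 UMIs in sum of the neuronal genes Tubb3, Elavl3 and Stmn2, after barcodes with under 1000 genes or over 10% mitochondrial UMIs were removed. The cells were thus chosen by their measured UMIs of Dmrt3 and of the 3 neuronal genes, so Dmrt3 and the 3 neuronal genes are described and nothing is read from them. The rule found 151 cells among 7910 neuronal cells and 14688 kept cells, and 135 of them came from the culture with retinoic acid (RA) and 16 from the culture with RA and bone morphogenetic protein 4 (RA+BMP4). Both cultures were of the MM13 embryonic stem cell line and both received RA, which steers neural cells to spinal fates, while BMP4 was added to one of them. Per the labels' protocols, day 9 cells were released with cold trypsin, cleared of dead cells and captured with the 10x Genomics Chromium Single Cell 3' version 3 kit. Each condition had 1 library, the labels name no replicate cultures, and therefore no difference was tested. Intervals in brackets are exact 95% intervals and cover counting error only.

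In the embryonic spinal cord, Dmrt3 encodes a zinc finger factor of the DM domain family and marks dI6 interneurons, a dorsal class that borders the ventral cord. Most dI6 neurons are inhibitory, many send their axon across the midline, and they take part in the circuits of left and right coordination during locomotion. They are commonly recognised by Lbx1, a homeobox factor of the dI4 to dI6 classes, by Pax2, a paired box factor of inhibitory neurons, by Wt1, a zinc finger factor of a dI6 subset, and by Bhlhe22, a basic helix-loop-helix factor of several dorsal classes. On GRCm38, Dmrt3 lies on chromosome 19 at 25610301 to 25623921 on the plus strand, Lbx1 on chromosome 19 at 45232684 to 45235812 on the minus strand, and Pax2 on chromosome 19 at 44756045 to 44837871 on the plus strand. Wt1 lies on chromosome 2 at 105126529 to 105173616 on the plus strand, and Bhlhe22 on chromosome 3 at 18054174 to 18057517 on the plus strand.

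In the RA library the Dmrt3 neurons made up 3.66% [3.08, 4.32] of 3688 neuronal cells, and in RA+BMP4 0.379% of 4222. The median depth of kept cells was 14352.5 UMIs in RA and 10611 in RA+BMP4. Most cells sat low on the Dmrt3 count itself: 69 of the 135 RA neurons held 1 Dmrt3 UMI, 26 held 2, 11 held 3, and the highest held 11. At the neuronal threshold, 2 kept RA cells with Dmrt3 had 4 neuronal UMIs, 0 had 5 and 3 had 6, while the median Dmrt3 neuron had 51. Dmrt3 was found in 0 of 394 collagen-rich RA cells, a class that should lack it and that was deeper (median 25765.5 UMIs), which allows a share of up to 0.761%. Of the barcodes, 43 occurred in both libraries, among them those of 3 RA Dmrt3 neurons and of 0 RA+BMP4 Dmrt3 neurons.

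The RA cells that met the rule were of 2 kinds. In 25 of the 135, at least 20 UMIs of the pluripotency genes Dppa5a, L1td1, Zfp42 and Utf1 were counted, with a lowest value of 54, a median of 368 and a highest of 900. The other 110 held 0 to 4 such UMIs, with a median of 0. The 25 cells were also deep, with a median of 66430 UMIs (29080 to 139653) against 14141.5 (2338 to 42365) in the 110, so they contributed 52.5% of all UMIs of the group, and the 3285 comparison neurons had a median of 12617. Of the 135 cells, 12 had fewer than 5 neuronal UMIs per 10000, and 11 of these were among the 25. Among all 345 RA cells with at least 20 pluripotency UMIs, Dmrt3 was seen in 7.83%, but in 0.581% of the 344 that could be thinned to 5000 UMIs. How far depth let the 25 cells meet the rule was not tested. Results are given for the 110 neurons against the 3285 other RA neurons with under 20 pluripotency UMIs, a restriction chosen after seeing the data, and gene groups are also given for all 135 cells against all 3553 others where the counts differ.

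**Figure D1:**
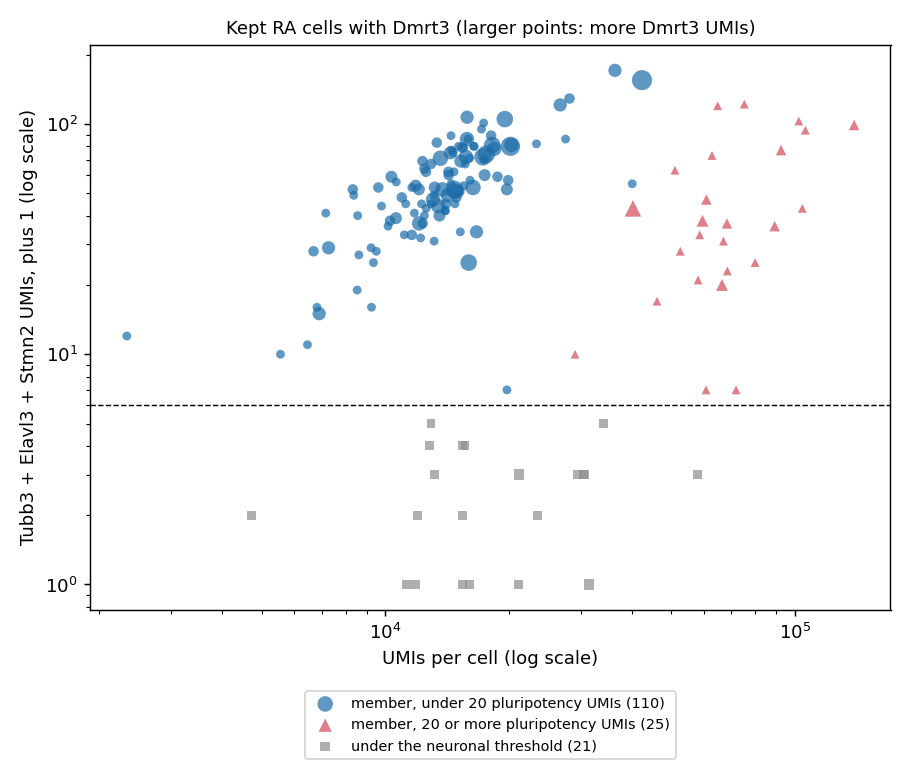
Kept RA cells with at least 1 Dmrt3 UMI, by UMIs per cell and by UMIs of Tubb3, Elavl3 and Stmn2 plus 1, both on log axes, with larger points for more Dmrt3 UMIs and a dashed line at the neuronal threshold. The 25 cells rich in pluripotency transcripts lie to the right, between 29080 and 139653 UMIs, and the 21 cells under the threshold were not counted as Dmrt3 neurons.

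The 110 neurons carried the dI6 markers Lbx1, Pax2 and Bhlhe22, whereas Wt1 was rare in them. Lbx1 was detected in 67 of 110 cells, 60.9% [51.1, 70.1], against 40.9% of the other neurons and 5.84% of collagen-rich cells. Per cell the Lbx1 count ran from 0 through a median of 1 to 9, and the summed level was 102 CPM (UMIs of a group scaled to a total of 1000000) against 58.7 CPM, a log2 ratio of 0.80 [0.56, 1.03]. Over all 135 cells Lbx1 was found in 49.6% and its level was 48.5 against 44.6 CPM. Pax2 was detected in 46 of 110 cells, 41.8%, against 25.8% of the others and 2.79% of collagen-rich cells, but its level was lower, 55.5 against 94.9 CPM (26.9 against 71.6 CPM over all cells). The highest Pax2 count was 11 in a Dmrt3 neuron and 33 in another neuron, so Pax2 was found in more of the Dmrt3 neurons but at lower counts. Bhlhe22 was found in 32 of 110 cells, 29.1%, against 14.6% of the others. Wt1 was found in 7 of 110 cells, 6.36%, against 4.08% of the others and 35.8% of collagen-rich cells, so its share was under that of cells that are not neurons. Lhx1, a LIM homeobox factor shared by dI2, dI4, dI6 and V1 neurons, was present in 83.6% of the 110 against 45.5%, with a median of 3 UMIs per cell.

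Depth moved these shares, so each cell was also thinned to 5000 UMIs, which 109 of the 110 neurons and 3221 of the others reached. Thinned, Lbx1 was detected in 33.0% [24.3, 42.7] of Dmrt3 neurons and 24.0% of the others, and Bhlhe22 in 15.6% [9.4, 23.8] and 7.23%, with 4.31% in collagen-rich cells. Pax2 was detected in 21.1% and 20.4%, so no difference was detectable at this depth. Wt1 was detected in 4.59% [1.5, 10.4] and 1.86%, against 12.2% of collagen-rich cells. Lhx1 was detected in 65.1% and 35.7%. Against the other neurons, the label dI6-like therefore rests on Lbx1, Bhlhe22 and, before thinning, Pax2. Lbx1 and Bhlhe22 were at like levels in Pax2 neurons without Dmrt3, as given below, so they do not set the cells apart from those. Of 6 compared factors listed as associated with dI6, 0 were higher than in the other neurons. Over all compared genes 3.71% were higher, so 0 of 6 is near that share and says little about the label. Of the 110 neurons, 27 held both Lbx1 and Pax2, 40 Lbx1 alone, 19 Pax2 alone and 24 neither. At least 2 of the 4 markers were found in 45 cells (40.9%, against 22.9% of the others), and 19 cells (17.3%, against 41.2%) had none of them. Among all 135 cells, 47 had at least 2 of the markers and 34 had none.

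**Figure D2:**
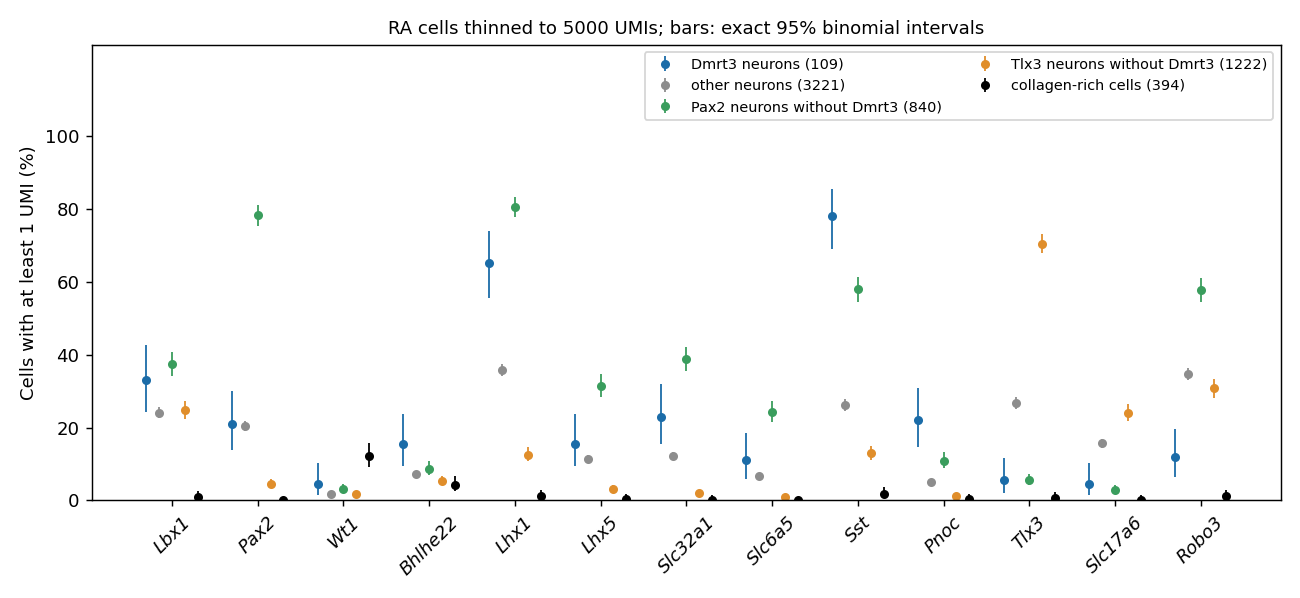
Percent of RA cells with at least 1 UMI of 13 genes after thinning each cell to 5000 UMIs, for 109 Dmrt3 neurons, 3221 other neurons, 840 Pax2 neurons and 1222 Tlx3 neurons without Dmrt3, and 394 collagen-rich cells, all but the last with under 20 pluripotency UMIs. Sst and Lhx1 stand at 78.0% and 65.1% in Dmrt3 neurons, Tlx3 and Slc17a6 at 5.50% and 4.59%, and bars are exact 95% intervals.

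By transmitter genes the 110 neurons were mostly inhibitory. At least 1 UMI of Gad1, Gad2, Slc32a1 or Slc6a5 and none of the vesicular glutamate transporters was found in 75 of them, 68.2% [58.6, 76.7], against 27.3% of the other neurons. The reverse, a glutamate transporter alone, was found in 5 cells (4.55%, against 22.3%), 1 cell had both kinds and 29 had neither (26.4%, against 48.0%). In Pax2 neurons without Dmrt3, 79.0% were inhibitory by this count and 13.7% had neither kind. These shares were taken without thinning. Over all 135 cells, 76 were inhibitory by this count and 7 excitatory. Slc32a1, the vesicular transporter of GABA and glycine, was at 54.2 CPM against 34.1 and was seen in 42.7% of cells against 20.5% of the others and 1.02% of collagen-rich cells. Gad2, one of the GABA synthesising enzymes, was lower at 26.8 against 46.5 CPM, and its share of cells was alike, 20.9% and 20.7%. Gad1 and Slc6a5, the neuronal glycine transporter, were both at 19.9 CPM, against 14.7 and 13.7. Slc17a6, the glutamate transporter of most spinal excitatory neurons, was at 10.6 against 45.8 CPM and was detected in 5 of 110 cells.

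Somatostatin was the most abundant of the listed genes that were higher in the Dmrt3 neurons. Sst, an inhibitory neuropeptide, was counted in 96 of 110 cells, 87.3%, against 35.4% of the others and 13.5% of collagen-rich cells. Its count per cell ran from 0 through a median of 15 to 250, while the other neurons had a median of 0 and a highest count of 321. Sst counts overlapped fully between the groups, since the highest neurons were outside the Dmrt3 set. The level was 2228.5 CPM against 450.3 CPM, a log2 ratio of 2.31 [2.25, 2.36], and over all 135 cells it was 1070.5 against 339 CPM. After thinning, Sst remained in 78.0% [69.0, 85.4] of Dmrt3 neurons and 26.2% of the others. Of the 10 listed neuropeptides, 2 reached 20 CPM, and the other, Cartpt, was not apart, at 284 against 265 CPM. Pnoc, the precursor of nociceptin, was outside that list and the naming rule and was named after its values were seen; it was found in 37.3% of the 110 and 7.88% of the others.

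Over all genes, a gene was called apart when it reached 20 CPM in either group and differed 2-fold or more. Between the 110 neurons and the others, 7137 genes were compared, 540 (7.57%) were apart, 265 (3.71%) higher in Dmrt3 neurons and 275 (3.85%) lower. With all cells, 335 (4.66%) of 7189 genes were apart, 134 (1.86%) higher and 201 (2.80%) lower, and 54 higher and 129 lower genes were called both ways. The shared genes made up 40.3% of the 134 and 20.4% of the 265 higher genes, and 64.2% and 46.9% of the lower ones. With the other neurons weighted to the depth of all 135 cells, 109 were higher and 117 lower. Part of the higher genes of the 135 cells moved with the 25 pluripotency-rich cells. Dazl, Sycp1, Aqp3, Scml2 and Tuba3a, of which Dazl and Sycp1 are germline genes, had log2 ratios of 2.22, 2.46, 2.18, 1.93 and 1.81 over all cells, but 0, 4, 0, 2 and 0 UMIs in the 110 neurons.

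The highest ratio in the 110 neurons belonged to Nkx6-2, a homeodomain repressor known from ventral spinal progenitors. It was at 37.4 CPM against 0.794 CPM, a log2 ratio of 5.56 [4.94, 6.19], but it was restricted to 20 of the 110 cells. Of the 50 compared neurons with an Nkx6-2 UMI, 20 held Dmrt3. Nkx6-2 was also seen in 22.3% of the pluripotency-rich RA cells, and over all 135 cells its level was 20.7 against 2.96 CPM. Agmo, which cleaves ether lipids, was at 22.4 against 0.686 CPM (log2 5.03) and found in 26 cells. Lhfpl3, a tetraspan membrane protein, was at 36.1 against 1.27 CPM (log2 4.84) in 29 cells. These 3 genes were close to absent from the other neurons and present in a minority of the Dmrt3 neurons.

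Other genes were high in more of the cells. Mecom, a zinc finger factor, had a lowest count of 0, a median of 0 and a highest of 20 UMIs per cell, and it was at 146 against 7.38 CPM (log2 4.30 [4.06, 4.55]) in 49 cells. Collagen-rich cells had Mecom in 30.7%. Met, the receptor of hepatocyte growth factor, was at 67.9 against 4.23 CPM in 42 cells. Dgkb, a diacylglycerol kinase, was at 102 against 7.96 CPM in 57 cells, with a median of 1 and a highest of 13 UMIs. Samd5, a SAM domain protein, was at 166 against 15.7 CPM in 76 cells, with a median of 2 and a highest of 12 UMIs, and 42.4% of collagen-rich cells also held it. Myt1l, a zinc finger factor of differentiated neurons, was found in 102 of 110 cells against 43.2% of the others and stood at 483 against 90.1 CPM, with a median of 7 and a highest of 25 UMIs. Samd5 and Myt1l were thus the broadest of these genes in the Dmrt3 neurons. Nlgn1, a postsynaptic adhesion protein, was at 71.7 against 11.5 CPM. The remaining genes among the highest 15 were Nwd2, Plppr5, Cnmd, Ppargc1a, Ptchd4, Zfp385b, Zmat4 and Ppp1r14c, with log2 ratios from 3.06 for Ppp1r14c to 3.93 for Nwd2. In all 135 cells Mecom, Met, Dgkb and Samd5 kept log2 ratios of 3.47, 3.04, 2.89 and 2.73.

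**Figure D3:**
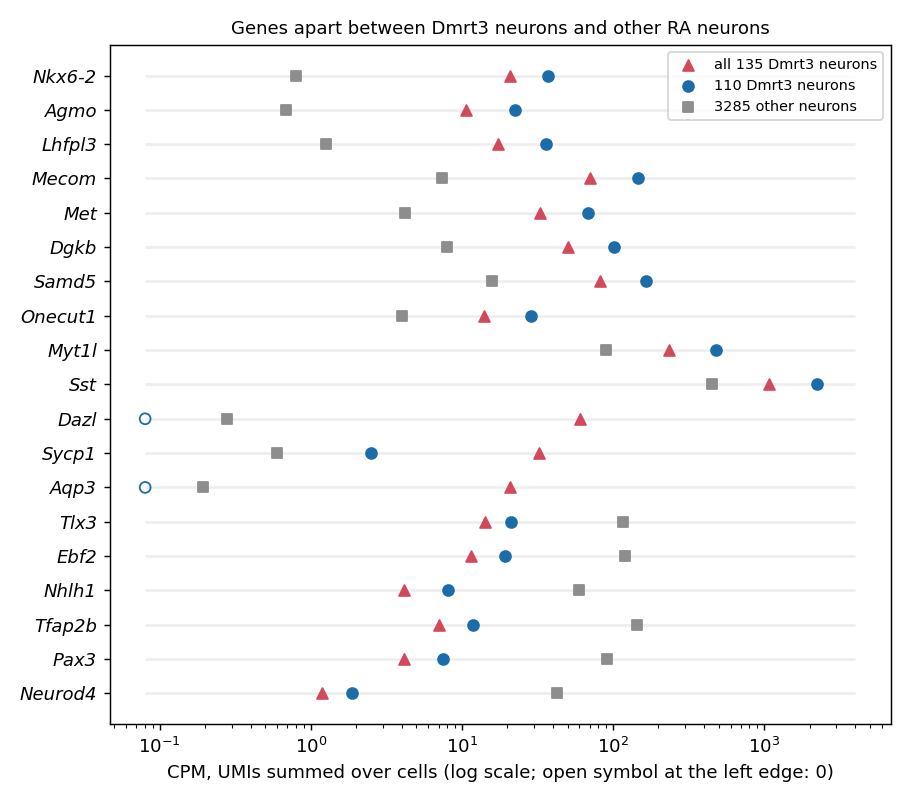
Level in CPM on a log axis of 19 genes in all 135 RA Dmrt3 neurons, in the 110 with under 20 pluripotency UMIs and in the 3285 other RA neurons with under 20, with open symbols at the left edge for a level of 0. Nkx6-2 to Sst are higher and Tlx3 to Neurod4 lower in both Dmrt3 groups, while Dazl, Sycp1 and Aqp3 pass 20 CPM in the 135 cells alone.

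Dmrt1, a relative of Dmrt3 that lies beside it at 25505618 to 25604329 on the plus strand of chromosome 19 and is better known from the testis, had 23 UMIs in the 110 neurons and 10 in the others, 14.3 against 0.215 CPM. That is under the 20 CPM limit, so Dmrt1 was not among the compared genes. It was seen in 19 of 110 cells (17.3%) against 7 of 3285 (0.213%), and 19 of the 26 neurons with Dmrt1 also had Dmrt3, 73.1% [52.2, 88.4]. Dmrt1 was also seen in 33.0% of the pluripotency-rich RA cells and in 0 of 394 collagen-rich cells.

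Genes of progenitors and newborn neurons were lower in the Dmrt3 neurons. Among 12 newborn neuron genes, 10 were compared, 9 were lower and 0 higher, with a median log2 ratio of -1.72 against 0.04 over all compared genes. Neurod4, a proneural factor, was at 1.87 CPM (3 UMIs) against 42.5 CPM, and Neurog2, another, had 2 UMIs, 1.25 against 21.2 CPM. All 5 Notch pathway genes compared, Notch1, Dll1, Dll3, Hes5 and Mfng, were lower, with a median of -1.97, and Dll1 and Dll3 also belong to the newborn list. Of 7 dorsal progenitor genes compared, Sox2, Pax3, Hes5 and Fabp7 were lower and 0 were higher. Pax3, a dorsal progenitor factor, was at 7.48 against 91.8 CPM, and Fabp7, a fatty acid binding protein of radial glia, was at 127 against 727 CPM. The other low genes of the naming rule included Msx3, a homeobox factor of dorsal progenitors, at 8.72 against 82.5 CPM, Nhlh1, a helix-loop-helix factor of newborn neurons, at 8.10 against 59.9 CPM, and Ccnd1, cyclin D1, at 13.1 against 114 CPM.

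Cell cycle genes went with the choice of cells. In the 110 neurons, 6 of 13 compared genes of S, G2 and M phase were lower and 0 higher, with a median of -0.87. Over all 135 cells, 14 of 14 were above 0 with a median of 0.59, and 0 were past 2-fold. The progenitor-related lists moved in one direction in both sets: over all 135 cells, 8 of 9 newborn neuron genes were lower with a median of -1.71, and so were the same 5 Notch pathway genes and 4 of 7 dorsal progenitor genes.

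Genes of neuronal maturation were on the other side. Of 15 compared, 5 were higher and 0 lower in the 110 neurons, with a median of 0.74, against 3.71% and 3.85% of all compared genes. Over all 135 cells 1 was higher and 1 lower with a median of 0.12, against 1.86% and 2.80% of all compared genes. Syt4, a synaptotagmin, was at 219 against 62.5 CPM, Snap25, a part of the synaptic fusion complex, at 143 against 65.0 CPM, and Scg2, a secretogranin of dense core vesicles, at 58.6 against 19.4 CPM. Stmn4 and Gng3 were the other higher members. Among transmitter receptor genes, Gria4, an AMPA receptor subunit, was at 74.2 against 15.9 CPM and Grin2b, an NMDA receptor subunit, at 94.7 against 33.4 CPM, and over all 135 cells Gria4 alone of 3 was past 2-fold.

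**Figure D4:**
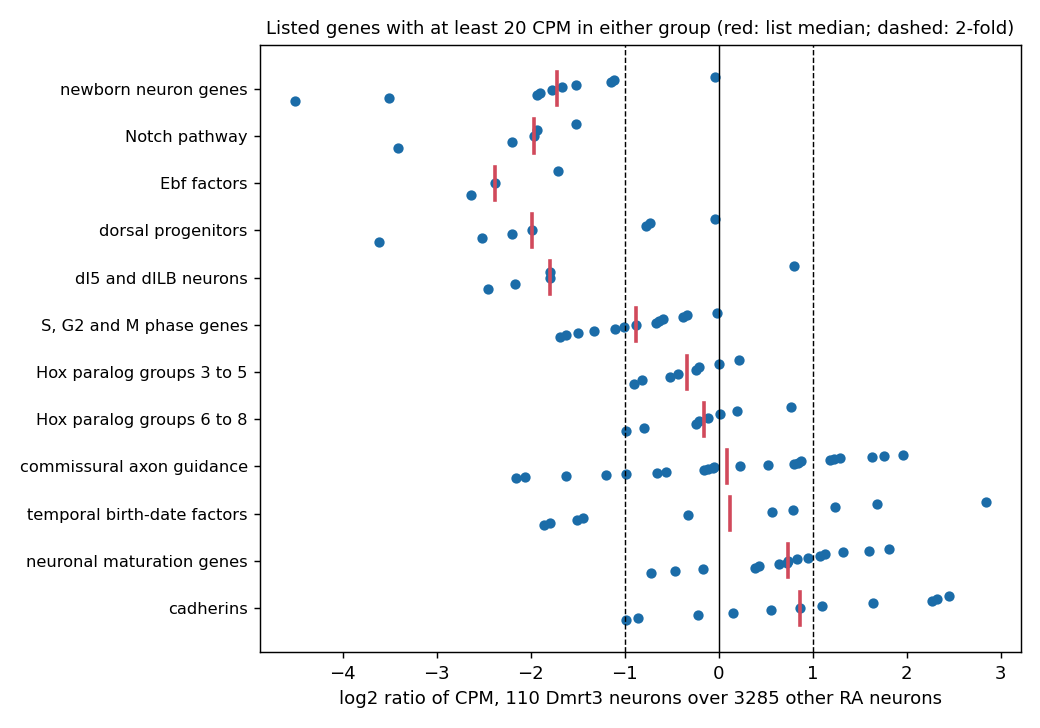
Log2 ratio of CPM in 110 RA Dmrt3 neurons over 3285 other RA neurons for each gene with at least 20 CPM in either group in 12 lists, with the list median in red and dashed lines at 2-fold. Newborn neuron genes, Notch pathway genes and Ebf factors have medians of -1.72, -1.97 and -2.38, and maturation genes and cadherins have medians of 0.74 and 0.87.

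Of 8 markers of the excitatory dI5 and dILB neurons, which also express Lbx1, 5 were compared, 4 were lower and 0 higher, and over all 135 cells 2 of 3, Tlx3 and Pou4f1, were lower. Tlx3, the homeobox factor that selects the glutamatergic fate, was at 21.2 against 116 CPM and was seen in 9 of 110 cells (8.18%, against 37.6%). Lmx1b, Prrxl1 and Pou4f1, homeobox factors of the same classes, had log2 ratios of -1.79, -2.17 and -1.79. The Ebf factors, helix-loop-helix proteins of early neurons, were all lower, Ebf1 at 176 against 575 CPM, Ebf2 at 19.3 against 120 CPM and Ebf3 at 33.7 against 175 CPM. In the V1 list, En1 and Foxp2 were lower, with log2 ratios of -1.21 and -1.48, and over all 135 cells both were under the 20 CPM limit. Of 6 compared factors listed as associated with dI6, 0 were higher, where 3.71% of all compared genes were higher and 3.85% lower. Prdm8, Sall3 and Pou3f1 were lower, with log2 ratios of -2.32, -1.27 and -2.08, while over all 135 cells Pou3f1 alone of 4 was lower. Tfap2b, an AP-2 factor of dorsal inhibitory neurons, was at 11.8 against 145 CPM.

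Temporal factors mark early or late birth in the spinal cord. Of 13 listed, 10 were compared, 3 were higher, 4 lower and 3 not past 2-fold in the 110 neurons, with a median of 0.12. The early factors Onecut1 and Onecut2 were higher, at 28.7 against 3.99 CPM and 213 against 66.1 CPM. Pou2f2 was higher as well, at 502 against 213 CPM. The late factors Nfia, Nfib and Nfix were lower, at 16.2 against 56.4 CPM, 18.1 against 51.5 CPM and 6.23 against 22.6 CPM, and Tcf4 was lower at 163 against 442 CPM. Over all 135 cells 8 were compared, and of these Onecut2 was higher and Nfia and Tcf4 lower, with a median of -0.08; Nfib was then at 50.3 against 54.5 CPM.

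Axon guidance genes lay on both sides. Of 22 compared, 6 were higher and 4 lower, with a median of 0.09. In the 135 cells, 2 of 19 were higher, Nrp2 and Ephb1, and 4 lower, Robo1, Robo3, Dcc and Cntn2, with a median of -0.33. Robo3, the receptor that lets commissural axons cross the midline, was at 54.8 against 170 CPM and was found in 22 of 110 cells against 45.2% of the others. Cntn2, an adhesion molecule of early commissural axons, was at 34.3 against 152 CPM, and Boc and Unc5c, receptors of Shh and netrin, had log2 ratios of -2.06 and -1.20. Nrp2, a semaphorin receptor, was higher at 414 against 134 CPM, and Robo2, a Slit receptor, at 116.5 against 49.8 CPM. Unc5d, Ephb1, Plxna4 and L1cam were the other higher members, with log2 ratios of 1.96, 1.76, 1.30 and 1.18. The crossing receptor was thus lower while several receptors of guidance cues were higher. Of 11 cadherins compared, 5 were higher and 0 lower with a median of 0.87, led by Cdh13 at 193 against 35.3 CPM, Cdh10 at 59.8 against 11.9 CPM and Pcdh17 at 113 against 23.5 CPM, followed by Pcdh8 and Pcdh10. In the 135 cells, 4 of 8 were higher, the same without Pcdh10, and Pcdh9 was lower.

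Hox genes, which report position along the body axis, were mostly alike. Of 8 compared in paralog groups 3 to 5 and 8 in groups 6 to 8, 0 were past 2-fold in the 110 neurons, with medians of -0.33 and -0.16. Over all compared genes 7.57% were past 2-fold. Over all 135 cells, 3 and 2 of the Hox genes in these groups were lower. In groups 9 to 13, Hoxb9 alone of 3 was lower in the 110 neurons, at 324 against 831 CPM. Over all 135 cells Hoxb9 and Hoxc9 were both lower. Crabp1, a retinoic acid binding protein, was at 193 against 821 CPM and was the 1 gene past 2-fold of 5 compared in the retinoic acid pathway. In the stress list and in the hypoxia list, 0 of 6 genes each were past 2-fold, with medians of -0.23 and -0.14.

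Pax2 neurons without Dmrt3, 846 cells with under 20 pluripotency UMIs, served as the comparison with inhibitory neurons of the same library. Against them 459 (6.46%) of 7100 genes were apart, 230 (3.24%) higher and 229 (3.23%) lower in the 110 neurons. With all cells it was 978 (13.2%) of 7396, 584 (7.90%) higher and 394 (5.33%) lower, and with Pax2 neurons weighted to the depth of all 135 cells 160 higher and 252 lower, so the split turned. Lbx1 was level, at 102 CPM in both, and Bhlhe22 was at 31.8 against 30.1 CPM. The transmitter genes were lower in Dmrt3 neurons, Gad2 at 26.8 against 167 CPM, Gad1 at 19.9 against 51.3 CPM, Slc32a1 at 54.2 against 115 CPM and Slc6a5 at 19.9 against 50.2 CPM. Pax2 chose the comparison cells and is not read here. Robo3 was at 54.8 against 374 CPM, Tfap2b at 11.8 against 227 CPM, Skor1, a corepressor of dorsal neurons, at 4.99 against 87.8 CPM, and Zic1, a zinc finger factor of dorsal cells, at 26.8 against 223 CPM. Of 7 compared factors listed as associated with dI6, 0 were higher and 4 were lower, Lhx1, Pax8, Prdm8 and Gbx2. With all cells, Lhx5 and Pou3f1 were lower as well. Gbx2, a homeobox factor, was at 4.36 against 43.5 CPM. Agmo, Nkx6-2, Lhfpl3, Dgkb, Met and Mecom were again the highest, with log2 ratios from 4.22 for Mecom to 6.45 for Agmo. Sst was at 2228.5 against 1337 CPM.

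Tlx3 neurons without Dmrt3, 1236 cells, were the excitatory comparison. Of 7134 genes, 626 (8.77%) were apart, 347 (4.86%) higher and 279 (3.91%) lower in the 110 neurons, and of 7261 with all cells, 728 (10.0%) were apart, 424 (5.84%) and 304 (4.19%). With Tlx3 neurons weighted to the depth of all 135 cells, 121 were higher and 149 lower, so this split turned as well. Lbx1 was at 102 against 59.2 CPM, Lhx1 at 257 against 47.9 CPM, Slc32a1 at 54.2 against 7.92 CPM and Sst at 2228.5 against 138 CPM. Pou4f1 was at 41.1 against 236 CPM and Ebf3 at 33.7 against 248 CPM. Robo3 and Cntn2 were lower than in both comparison groups, and Onecut1, Onecut2 and Pou2f2 were higher than in both.

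The 110 neurons were not uniform. Of them 52 had 1 Dmrt3 UMI and 58 had 2 or more, with median depths of 13161.5 and 14355.5 UMIs. Dmrt3 chose this split, so its values are a description. Tlx3 and Slc17a6 were nearly confined to the cells with 1 UMI. Tlx3 was at 47.0 CPM and found in 8 of 52 cells, against 1.11 CPM (1 UMI) and 1 of 58 cells. Slc17a6 had 17 UMIs, 24.2 CPM, in the 52 and 0 UMIs in the 58, which allows a level of up to 3.32 CPM. Of the UMIs in the 110 neurons, the highest single cell held 29.4% for Tlx3 and 35.3% for Slc17a6. The 2 cells called as doublets were both among the 52. Pou4f1 was at 69.9 and 18.8 CPM, and Robo3 at 92.7 and 25.5 CPM. Some of the genes that most separated Dmrt3 neurons from the others leaned the opposite way, while Samd5 was nearly level. Nkx6-2 was at 5.70 CPM (4 of 52 cells) and 62.0 CPM (16 of 58), Agmo at 7.13 CPM (3 of 52) and 34.3 CPM (23 of 58), and Dgkb at 61.3 and 134 CPM. Lbx1 was at 124 and 85.3 CPM and detected in 61.5% and 60.3% of cells, and Samd5 was at 160 and 172 CPM. Lhx1 was found in 73.1% and 93.1%, and Sst in 78.8% and 94.8%.

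**Figure D5:**
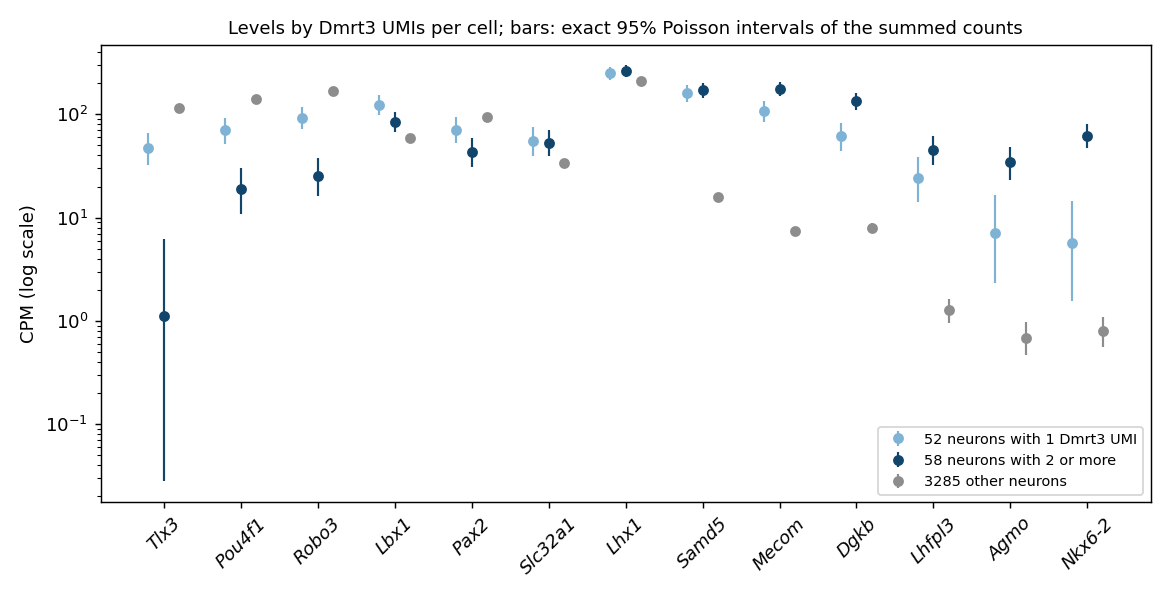
Level in CPM on a log axis of 13 genes in the 52 RA Dmrt3 neurons with 1 Dmrt3 UMI, the 58 with 2 or more and the 3285 other RA neurons, all with under 20 pluripotency UMIs, with exact 95% Poisson intervals of the summed counts. Tlx3, Pou4f1 and Robo3 are lowest in the 58 neurons, Agmo and Nkx6-2 are highest there, and Lhx1 and Samd5 lie close together in both.

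Wt1, known from a dI6 subset, was found in few Dmrt3 neurons and in a smaller share of them than of collagen-rich cells. Whether the cells with Wt1 are that subset was not tested. The 7 Dmrt3 neurons with a Wt1 UMI had a median depth of 11607 UMIs, the 103 without it 14260, and 134 other neurons with Wt1 12684. Pax2 was detected in 6 of the 7 and stood at 220 CPM, against 46.1 CPM in the 103 and 107 CPM in the 134. Bhlhe22 was at 104, 27.7 and 34.8 CPM in the same order. Mecom was at 11.6, 153 and 9.14 CPM, and Sst at 1135, 2291 and 1583 CPM. So the cells with Wt1 had more Pax2 and Bhlhe22 and less Mecom and Sst than the cells without it, over 7 cells whose values rest on few counts. By Dmrt3 count, Wt1 was at 17.1 CPM in the 52 neurons with 1 UMI and 2.21 CPM in the 58 with more.

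In the RA+BMP4 library, 11 of the 16 cells that met the rule had no UMI of Lbx1, Pax2, Wt1 or Bhlhe22. That was 68.8%, against 80.9% of the other RA+BMP4 neurons. Of the 16 cells, 8 had 52 to 340 pluripotency UMIs, and the other 8 made up 0.195% of the neuronal cells left, against 3.24% [2.67, 3.89] in RA. The Dmrt3 count was 1 in 13 of the 16 cells, 2 in 2 and 3 in 1. Among the 8, 1 had 62 collagen UMIs, and 5 had none of Lbx1, Pax2, Wt1 and Bhlhe22. That was 62.5%, against 80.8% of the other RA+BMP4 neurons with under 20 pluripotency UMIs. Slc17a6 was counted at 4, 3, 2 and 1 UMIs in 4 of the 8 cells, and Barhl2, a homeobox factor of dI1 neurons, at 6, 5, 2 and 1 in the same 4. The cell with 3 Dmrt3 UMIs came nearest to the RA cells, with 2 UMIs of Lbx1, 6 of Lhx1, 36 of Sst and 101 neuronal UMIs. Another held 5 UMIs of Pax2, 6 of Bhlhe22, 10 of Lhx1 and 2 of Slc32a1. Among the other RA+BMP4 neurons, Lbx1 was at 13.4 CPM, Pax2 at 26.8 CPM and Barhl2 at 115 CPM.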

How the data were processed

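The RA and RA+BMP4 libraries were read from the deposited matrices, which hold UMI counts per gene and barcode. Cell Ranger 3.0.2, CASAVA and the build GRCm38 are named in the submitters' processing notes. How cells were called, and from which annotation release genes were counted, is not given in the sources used here. In all, the files held 9704 RA and 13121 RA+BMP4 barcodes. Removal of cells with under 1000 genes or over 10% mitochondrial UMIs left 6038 and 8650 cells. The RA Dmrt3 neurons had a median of 14922 UMIs. Scrublet in scanpy 1.11.5 (expected rate 8%) called 6 of the 135 RA cells and 2 of the 110 as doublets, and they were kept.

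UMIs were summed over cells, scaled to CPM and compared as ratios with exact conditional binomial intervals. A group with under 3 UMIs of a gene was set to 3 where a ratio was taken. Shares have Clopper-Pearson intervals, and a share of 0 allows up to 3 cells. Collagen-rich cells had at least 20 collagen UMIs. UMI tags limit PCR duplicates, and all intervals cover counting error only. Coordinates are from GENCODE vM21, matched by gene ID for 356 of 356 genes. Genes named belong to the lists and cell type markers or have one of the 15 highest or 15 lowest ratios against other RA neurons, or the 10 highest or 10 lowest against Pax2 neurons, leaving out predicted and mitochondrial genes. The values of some listed genes are left out of the text. The cells, lists and markers were chosen with earlier results of these data known. The ratio step was also run on simulated counts of the comparison with other RA neurons, drawn from pooled means without variation between cells. All 50 genes changed 3-fold and all 50 changed 5-fold were called in each direction. This held with all cells (6878 genes) and without the pluripotency-rich ones (6830 genes). Of unchanged genes, 0 of 6678 and 2 of 6630 were called. The changed genes came from above the 20 CPM limit. False calls from differences between cells could not arise in this setting, so their rate is not known. Python 3.11.15, numpy 2.4.6, scipy 1.17.1, pandas 2.3.3 and matplotlib 3.10.9 were used. Alternatives were other thresholds, filters, weights of cells, scalings, detection limits and doublet removal.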

Additional observations from a re-analysis of the deposited data

Results flagged for a closer look

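Dmrt3 was also counted in cells under the neuronal threshold. In RA, 21 of 1956 such cells that were not collagen-rich had a Dmrt3 UMI, 1.07% [0.666, 1.64]. Of 394 collagen-rich cells 0 had it, with an interval of [0, 0.932], so the intervals overlap. Of these 21 cells, Sox2 was found in 19, Fabp7 in 19, Pax3 in 17, Rspo3 in 12 and Mki67 in 11, and 2 were pluripotency-rich. In RA+BMP4, 20 of 3761 such cells had Dmrt3, 0.532% [0.325, 0.820], against 2 of 667 collagen-rich cells, 0.300% [0.036, 1.08], so these intervals overlap too.

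Among listed genes, 4 were apart in opposite directions in the 2 libraries. In the 8 RA+BMP4 Dmrt3 neurons with under 20 pluripotency UMIs, the log2 ratios over the other neurons were 1.25 for Btg2, 1.21 for Col3a1, 1.11 for Fabp7 and 1.14 for Ube2c, and in the 110 RA neurons they were -1.67, -1.87, -2.52 and -1.33. The RA+BMP4 values rest on 39, 28, 86 and 19 UMIs, and 1 of the 8 cells held 43841 of their 117349 UMIs. That cell held 62 UMIs of Col1a1, Col1a2 and Col3a1 in sum, and each of the others 0 or 1. The Col3a1 value is therefore almost all from that 1 cell. The difference between the libraries was not tested.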

How the results depend on the processing

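No paired analysis was possible because each condition had 1 library. For the number of Dmrt3 neurons, at least 2 Dmrt3 UMIs gave 66 in RA (1.79%) and 3 in RA+BMP4 (0.0711%). A stricter cell filter (at least 2000 genes, at most 5% mitochondrial UMIs) gave 19 in RA (2.91%). RA+BMP4 had 7 with at least 20 neuronal UMIs, 7 (0.173%) with 5 neuronal UMIs per 10000 and 8 (0.195%) without pluripotency-rich cells.

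Against other RA neurons, all 135 cells had 134 higher and 201 lower genes. The stricter cell filter gave 332 and 432, 5 neuronal UMIs per 10000 gave 227 higher, removal of pluripotency-rich cells gave 265 higher, weighting to 10 depth bins gave 117 lower, and a limit of 5 CPM gave 389 and 399. Against Pax2 neurons, the stricter filter gave 991 lower, removal of pluripotency-rich cells 230 and 229, equal weight of cells 311 and 235, depth bins 160 and 252, and 5 CPM 1223 and 699. Against Tlx3 neurons, the stricter filter gave 677 lower, depth bins 121 and 149, and 5 CPM 970 and 557. Of the listed genes, 10 were higher, and this became 16 with at least 2 Dmrt3 UMIs, 17 with the stricter filter, 24 without pluripotency-rich cells, 24 with equal weight and 16 with depth bins.

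Thinned to 5000 UMIs, the 135 cells had Lbx1 in 26.9%, Pax2 in 17.2%, Wt1 in 3.73% and Bhlhe22 in 12.7%. Without thinning the shares were 49.6%, 35.6%, 10.4% and 25.9%, and at 2500 UMIs Wt1 was at 0.746% and Bhlhe22 at 5.97%. The 14 cells with Wt1 became 4 with at least 2 Dmrt3 UMIs, 2 with the stricter filter and 7 without pluripotency-rich cells.

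With the stricter filter the log2 ratios of Cdh10, Nfia, Dazl and Col3a1 turned to -0.059, 0.040, -0.40 and 0.36, and with at least 2 Dmrt3 UMIs that of Scml2 turned to -1.41, all with sums under 3 UMIs set to 3. The cause of these changes was not tested. Of 126 genes followed through the alternatives, 91 reached 20 CPM and were past 2-fold without pluripotency-rich cells, and 89 of these stayed past 2-fold in the 4 further alternatives run without those cells. The exceptions were Pcdh10 (0.62) and Col3a1 (-0.97). Few cells and few UMIs per gene limit the values of Wt1, Dmrt1 and the RA+BMP4 cells.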
